A study of Rattus norvegicus with 65 samples.

Results

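Among rat mammary tumors that kept epithelial transcript, those with the highest and the lowest levels of milk protein genes were set against each other. The classes were chosen from measured values. Each array was scaled to a common median, each gene took the values of the probe set with its highest mean, and 54 of 65 arrays with an Epcam log2 intensity of 8 or more were kept. A milk score, the mean log2 intensity of Csn3, Csn1s1 and Lalba, was computed for the 54 arrays, and the 25% with the highest score gave 13 milk-gene-high tumors and the 25% with the lowest score 13 milk-gene-low tumors. The 28 arrays between them are called the middle class, and 11 arrays lay under the Epcam limit.

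The arrays came from tumors that were first induced with a carcinogen and then passed through 5 generations of syngeneic (genetically matched) hosts. There were 11 transplant series, each a line of descent from 1 primary tumor, and each array is 1 tumor of 1 generation. The labels name neither the carcinogen, the rat strain, the age nor the invasive behaviour of single tumors, and every group shares the carcinogen origin. Tumors of 1 line descend from one another and are not independent samples, and the labels do not say how series 25L and 25R, which carry 1 number, are related. For series 10, transplant 5 was not analysed here.

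The milk-gene-high tumors were transplants 1 to 4 of series 10, transplants 2, 3 and 4 of series 13, transplants 1, 3 and 4 of series 25L, transplants 1 and 3 of series 33 and transplant 3 of series 36. The milk-gene-low tumors were transplants 1 to 5 of series 17, transplants 4 and 5 of series 19, transplant 4 of series 25R, the primary tumor and transplants 1 and 3 of series 32, and transplants 4 and 5 of series 36. Each class therefore held 5 lines, and series 36 was the only line with tumors in both. By generation, the milk-gene-high class held 0 primary tumors, 3 of transplant 1, 2 of transplant 2, 5 of transplant 3, 3 of transplant 4 and 0 of transplant 5. The milk-gene-low class held 1, 2, 1, 2, 4 and 3 tumors in the same order.

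Caseins, alpha-lactalbumin and whey acidic protein are made by the alveolar luminal cells of the mammary gland in late pregnancy and lactation. Their genes respond to prolactin through its receptor, the kinase Jak2 and the transcription factor Stat5, together with glucocorticoid. The same cells synthesise short and medium chain fatty acids, package lipid into milk fat globules, and pump calcium, zinc and lactose precursors into the secretory pathway. Csn3 encodes kappa-casein, which stabilises casein micelles, Csn1s1 encodes an alpha-casein, and Lalba is the regulatory subunit of lactose synthase.

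The promoter windows of 4 genes are printed here because Csn2 and Wap are the milk genes outside the score that were near or at the floor in milk-gene-low tumors, Csn1s1 is a gene of the score, and Cish is a known target of Stat5. The windows run from 250 bases before to 50 bases after the gene start in RefSeq, build GRCr8, and each is written 5′ to 3′ on the strand of its gene. Capitals mark TTCNNNGAA, the core palindrome of Stat5-type sites, which reads the same on both strands. The windows lie at chr14:20638800-20639099 (minus strand) for Csn1s1, chr14:20601574-20601873 (plus strand) for Csn2, chr14:85719110-85719409 (minus strand) for Wap and chr8:116850719-116851018 (plus strand) for Cish.
Csn1s1: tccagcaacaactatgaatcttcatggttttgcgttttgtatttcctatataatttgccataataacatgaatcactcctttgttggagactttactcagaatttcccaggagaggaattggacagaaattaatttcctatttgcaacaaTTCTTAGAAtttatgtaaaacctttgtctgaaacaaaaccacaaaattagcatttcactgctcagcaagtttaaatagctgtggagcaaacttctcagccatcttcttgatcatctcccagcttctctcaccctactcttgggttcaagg
Csn2: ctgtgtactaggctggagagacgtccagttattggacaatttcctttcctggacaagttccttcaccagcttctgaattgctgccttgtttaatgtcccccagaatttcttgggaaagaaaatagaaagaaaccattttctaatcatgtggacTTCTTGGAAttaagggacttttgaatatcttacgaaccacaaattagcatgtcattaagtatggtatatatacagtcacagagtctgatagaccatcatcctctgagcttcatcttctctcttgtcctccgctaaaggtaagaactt
Wap: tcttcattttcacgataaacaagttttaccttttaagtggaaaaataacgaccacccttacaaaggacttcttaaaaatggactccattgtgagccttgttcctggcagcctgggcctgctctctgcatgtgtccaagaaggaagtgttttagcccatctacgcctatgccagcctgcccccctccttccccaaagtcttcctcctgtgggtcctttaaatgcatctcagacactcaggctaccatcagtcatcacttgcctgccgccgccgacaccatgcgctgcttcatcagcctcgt
Cish: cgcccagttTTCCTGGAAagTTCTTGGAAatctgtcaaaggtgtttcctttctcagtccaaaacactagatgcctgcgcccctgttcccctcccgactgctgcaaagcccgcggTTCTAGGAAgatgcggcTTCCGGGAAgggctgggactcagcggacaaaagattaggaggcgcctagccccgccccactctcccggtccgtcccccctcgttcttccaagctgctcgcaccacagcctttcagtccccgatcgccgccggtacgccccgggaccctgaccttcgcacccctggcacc

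Csn1s1 had 1 match that began 100 bases before the gene start, and Csn2 had 1 that began 97 bases before it. The Cish window held 4 matches that did not overlap, and the Wap window held none. Among Csn1s1, Csn2, Csn3, Lalba and Wap, 2 of 5 windows held the motif, against 2382 of 27457 windows in the whole table (8.68%). Windows were at hand for 460 of the genes that were higher in milk-gene-high tumors and for 350 of those that were lower. The motif was in 39 (8.48%) of the higher and 26 (7.43%) of the lower ones, and in 455 of 7105 (6.40%) of all genes tested that had a window. A match says only that these letters stand in the window.

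The levels that defined the classes are given as a description. Csn3 had a lowest, median and highest log2 intensity of 12.81, 13.36 and 13.63 in milk-gene-high tumors, against 8.81, 11.08 and 12.28 in milk-gene-low tumors. Csn1s1 lay at 12.74, 13.08 and 13.34 in milk-gene-high tumors and at 6.81, 8.56 and 10.40 in milk-gene-low tumors. For Lalba these values were 12.26, 12.68 and 13.13 in milk-gene-high tumors and 5.79, 7.36 and 9.32 in milk-gene-low tumors. Csn3 stayed well above the floor of 5.31 in all milk-gene-low tumors, while Lalba came close to it in the lowest of them. The score spanned 0.58 log2 units within the milk-gene-high class and 2.95 within the milk-gene-low class. The lowest score inside the milk-gene-high class was 12.75 and the highest outside it was 12.68. The highest score inside the milk-gene-low class was 10.40 and the lowest outside it was 10.44.

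Over the 54 kept arrays, 51.4% of the variance of the score lay between the 10 lines and 17.5% between generations. Series 10 stayed high in each generation, between 12.55 and 12.99. Series 13 scored 11.74 in the primary tumor, 12.11, 13.31, 13.32 and 13.27 in transplants 1 to 4, and 10.44 in transplant 5. Series 17 scored 10.95 in the primary tumor and between 8.26 and 9.88 in its transplants. Series 25R scored between 11.39 and 12.68 in the primary tumor and transplants 1 to 3, then 7.83 in transplant 4 and 10.93 in transplant 5. Over the 10 epithelial primary tumors the median score was 11.76, and over the 7 epithelial tumors of transplant 5 it was 10.44. The 11 arrays under the Epcam limit had scores between 5.48 and 9.77.

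**Figure D1:**
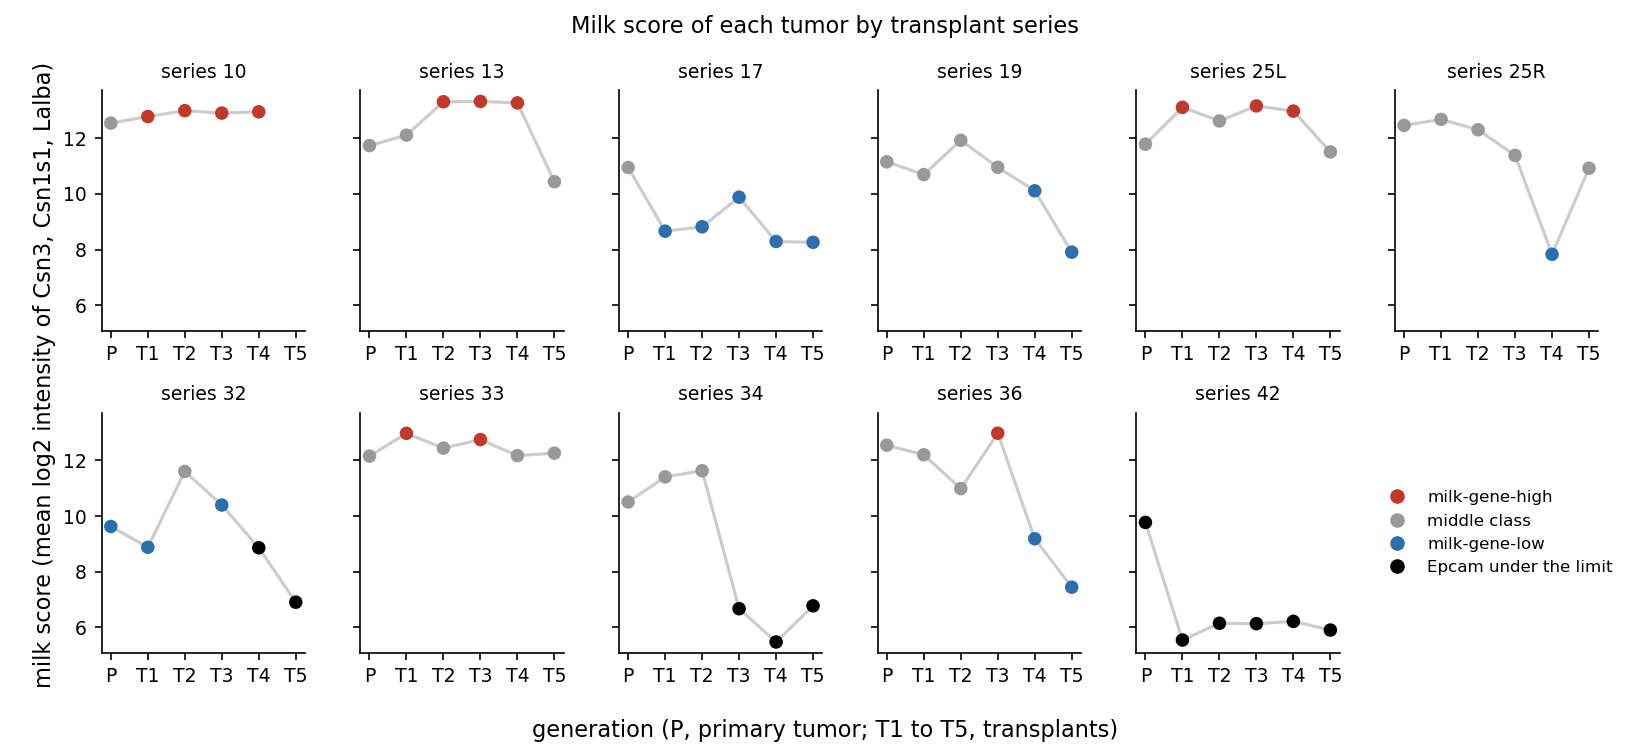
Milk score (mean log2 intensity of Csn3, Csn1s1 and Lalba, vertical axis) by generation (horizontal axis, P for the primary tumor and T1 to T5 for transplants) in each of the 11 series, 1 point per tumor. Points are coloured by class; series 10, 13, 25L and 33 hold milk-gene-high and no milk-gene-low tumors, and series 36 is the only one with both.

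Epcam, the epithelial adhesion molecule that set the limit, lay between 11.09 and 11.67 in milk-gene-high tumors and between 9.17 and 11.91 in milk-gene-low tumors. Transplant 3 of series 32 (9.17) and transplant 5 of series 36 (9.46) were the only milk-gene-low arrays with Epcam under 10. The Gapdh 3 prime to 5 prime ratio, a sign of RNA integrity, had a median log2 of 0.11 in milk-gene-high and 0.14 in milk-gene-low tumors, and the median intensity before scaling was 162 in milk-gene-high and 166 in milk-gene-low arrays. The luminal keratin Krt8 lay at a median of 11.76 in milk-gene-high and 10.78 in milk-gene-low tumors, far from the floor in both.

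Outside the genes of the rule, 8495 genes were compared with limma on log2 intensities, with line as a random block and Benjamini-Hochberg adjustment. Genes with an adjusted p under 0.05 are called higher or lower, and a log2 difference is always milk-gene-high minus milk-gene-low. In milk-gene-high tumors 550 genes were higher (6.47% of those tested) and 430 were lower (5.06%), with a median difference over all genes of 0.00. At least 2-fold differences were found for 97 of the higher and 94 of the lower genes. Because the classes were set on the same arrays, each call is an association with the milk score, and because lines and classes nearly coincide, differences between classes and between lines cannot be told apart for most arrays. With line as a fixed block 418 genes were called (297 higher, 121 lower), and with 1 value per line and class 123 were called (100 higher, 23 lower). Of the 89 called genes chosen by rule for naming (58 higher, 31 lower), 39 higher and 9 lower were still called with the fixed block, and 22 higher and 1 lower with 1 value per line and class. In bulk tumor tissue, fewer cells of a type and less RNA per cell cannot be told apart.

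For 25 of 8495 genes (0.294%) no milk-gene-high value overlapped any milk-gene-low value, and all 25 were higher in milk-gene-high tumors. Csn2, Wap, Olah, Pigr, Muc4, Aldoc, Tgfb3, Me1 and Plin2, described below by role, were 9 of them. Csn2 and Wap were tested only because of the milk-gene-high arrays, so they add no support to this count.

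**Figure D2:**
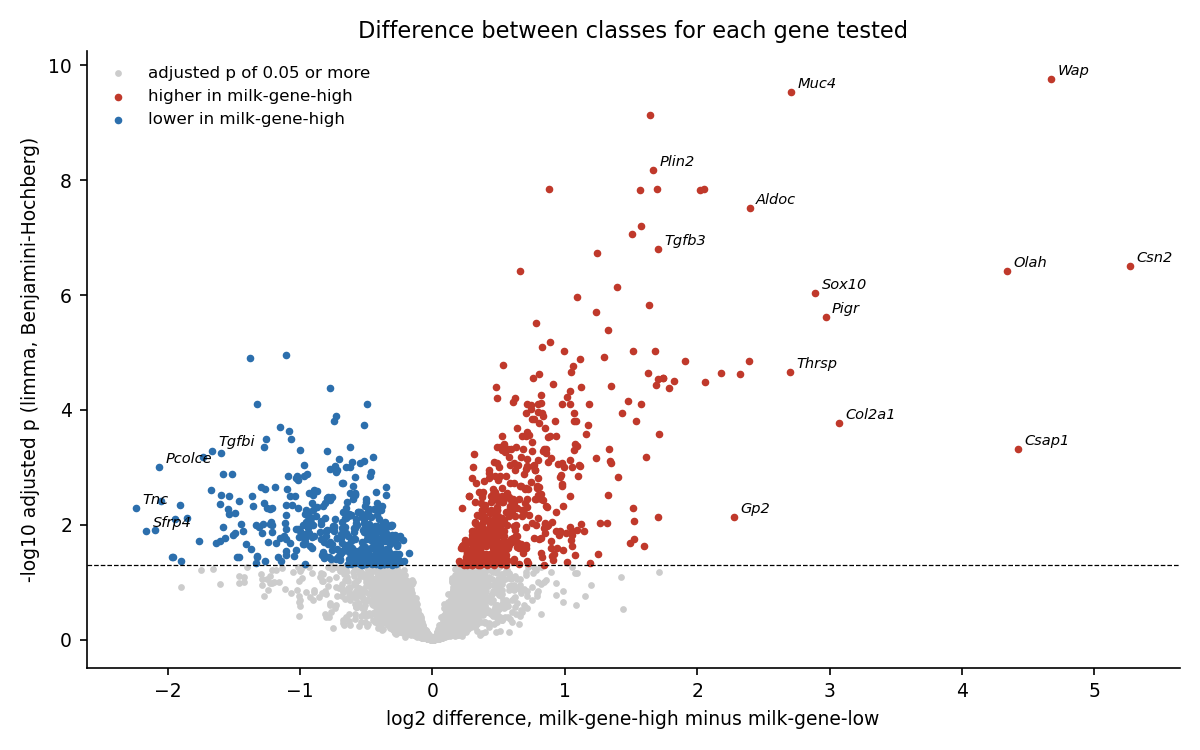
Log2 difference between milk-gene-high and milk-gene-low tumors (horizontal axis) against the negative log10 of the adjusted p from limma (vertical axis), 1 point per gene, with the 0.05 threshold dashed. The 550 higher and 430 lower genes are coloured; Csn2, Wap, Csap1 and Olah lie farthest to the right, and no gene lies as far to the left.

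Milk proteins came first. Of 13 tested members of the milk protein list 7 were higher and 2 lower in milk-gene-high tumors, with a median difference of 0.87, against 0.00 over all genes. Among these calls, Csn2 and Wap (higher) and Wfdc18 (lower) passed the filter on low values only through the class in which each was high. Csn2, which encodes beta-casein (chromosome 14, 20601824 to 20609061), ranged from 8.03 to 12.60 with a median of 11.16 in milk-gene-high tumors, against 5.31 to 7.50 with a median of 5.31 in milk-gene-low tumors. It was at the floor in 10 of 13 milk-gene-low tumors, and the values above it were 5.55 in transplant 1 of series 17, and 7.50 and 6.20 in transplants 1 and 3 of series 32. The fitted difference of Csn2, 5.27 ± 0.70 log2 units (SE; adjusted p = 3.09e-07, limma), is therefore mostly set against floor values and does not measure the size of the change. Within the milk-gene-high class it was lowest in transplants 3 and 4 of series 10 (8.03 and 8.10) and highest in transplants 3 and 4 of series 13 (12.59 and 12.60).

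Wap, the whey acidic protein (chromosome 14, 85717038 to 85719159), ranged from 7.41 to 11.74 with a median of 10.50 in milk-gene-high tumors. It was at the floor in all 13 milk-gene-low tumors, so that it was at least 29.8-fold higher in the milk-gene-high class (adjusted p = 1.72e-10, limma). Transplant 1 of series 33 had the lowest Wap of its class. Without the milk-gene-high arrays, the mean level of Wap (5.71) and of Csn2 (6.06) lay under the filter on low values, so both were tested only because of the class in which they are high, and their adjusted p values add no support. In the middle class 19 of 28 tumors were at the Wap floor and 11 of 28 at the Csn2 floor, although their Csn3 lay between 10.77 and 13.16.

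Pigr, the receptor that carries polymeric immunoglobulin into milk, ranged from 8.01 to 11.16 (median 9.10) in milk-gene-high and from 5.31 to 7.72 (median 6.62) in milk-gene-low tumors, a difference of 2.97 ± 0.43 (adjusted p = 2.42e-06, limma). Cel, the bile salt stimulated lipase of milk, was higher by 1.64 ± 0.23 (SE), with medians of 7.88 in milk-gene-high and 6.02 in milk-gene-low tumors. Lpo, the peroxidase of milk, was higher by 1.09 and Cd14, the endotoxin coreceptor found in milk, by 1.12. Mfge8, the milk fat globule protein also called lactadherin, was higher by 0.87 (adjusted p = 0.0101, limma), a call not made with line as a fixed block (adjusted p = 0.0880) or with 1 value per line and class (adjusted p = 0.202).

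The 2 lower members were Wfdc18 (listed under its older name Expi), a whey acidic protein family member, and Lyz2, a lysozyme that is also on the macrophage list. Wfdc18 ranged from 5.31 to 7.65 in milk-gene-high and from 5.31 to 12.16 in milk-gene-low tumors, and its call (adjusted p = 0.0426, limma) was lost with a fixed block (adjusted p = 0.392). Without the milk-gene-low arrays its mean level (6.10) lay under the filter on low values. The members that did not pass were Glycam1 (difference 0.36), Spp1 (-0.68), Slpi (-1.07) and Trf (-0.32).

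**Figure D3:**
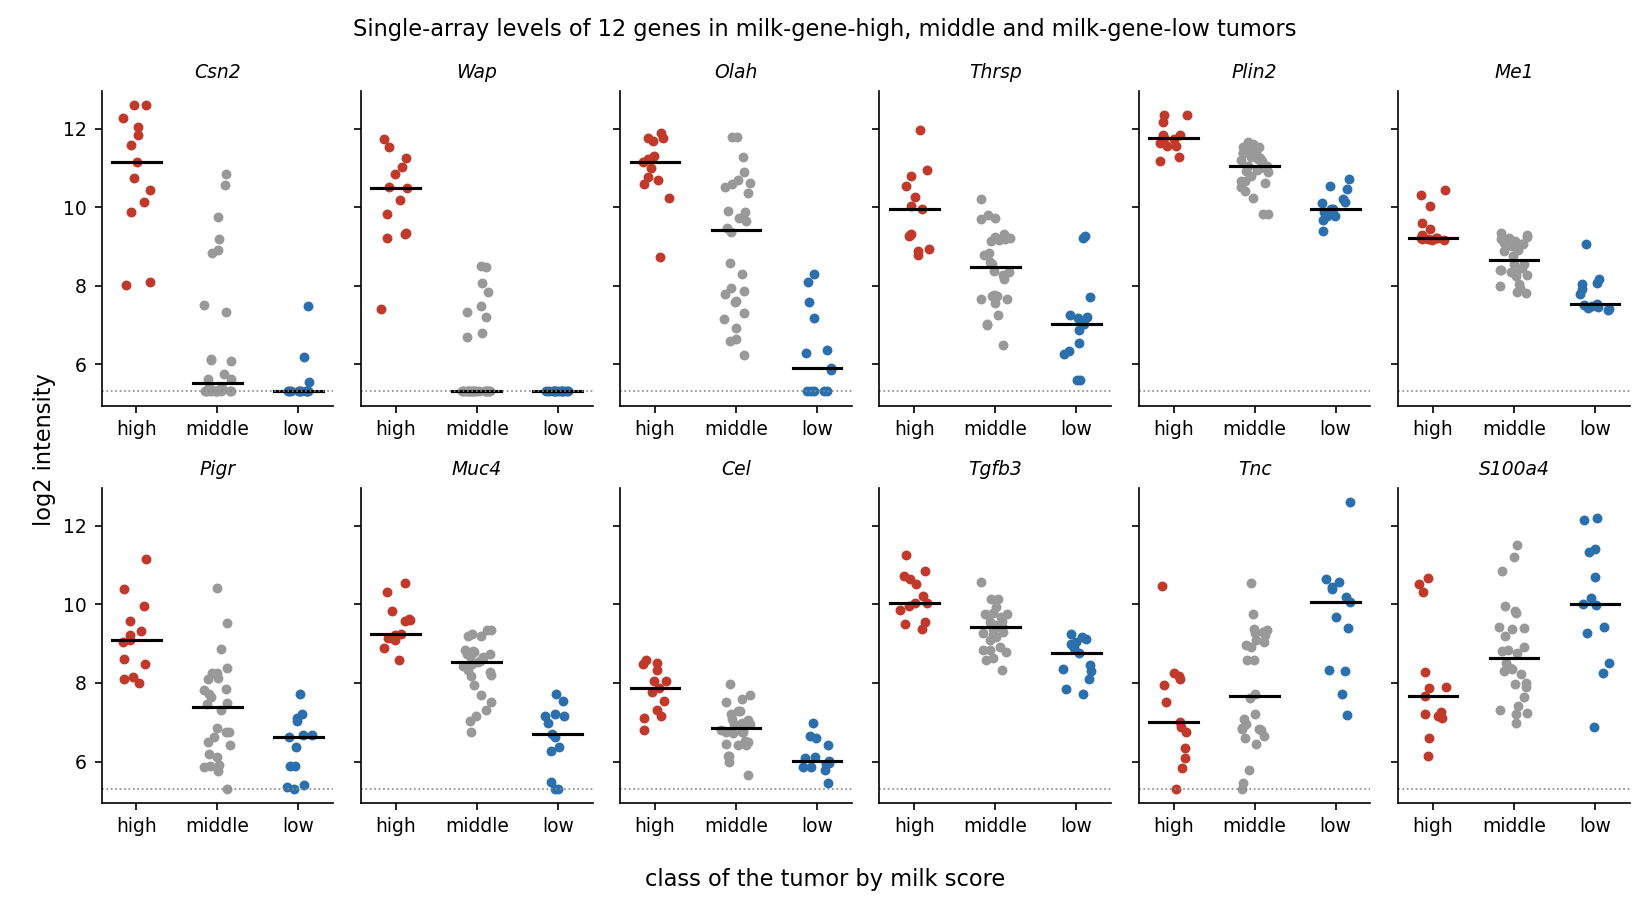
Log2 intensity of 12 genes (vertical axis) in milk-gene-high, middle class and milk-gene-low tumors (horizontal axis), 1 point per array, with the median as a bar and the floor of 5.31 dotted. Wap is at the floor in all milk-gene-low tumors, Plin2, Me1, Olah and Muc4 do not overlap between the outer classes, and Tnc and S100a4 overlap.

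Milk fat followed. Of 30 tested members of the milk fat and lipogenesis list 15 were higher and 0 lower in milk-gene-high tumors, with a median difference of 0.35. Olah, the thioesterase that ends fatty acid chains early and so gives medium chain fatty acids, ranged from 8.73 to 11.89 (median 11.14) in milk-gene-high tumors, against 5.31 to 8.30 (median 5.92) in milk-gene-low tumors. It was higher by 4.34 ± 0.58 log2 units (SE; adjusted p = 3.84e-07, limma), with 5 milk-gene-low tumors at the floor. The highest milk-gene-low values of Olah were in the primary tumor and transplant 1 of series 32, at 8.10 and 8.30.

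Thrsp, a nuclear protein that promotes lipogenic transcription, was higher by 2.70 ± 0.44 (SE), with medians of 9.95 in milk-gene-high and 7.02 in milk-gene-low tumors. Its ranges met, since transplants 3 of series 17 and 4 of series 19 had 9.21 and 9.27 in the milk-gene-low class and transplant 1 of series 25L had 8.80 in the milk-gene-high class. Plin2, which coats lipid droplets, ranged from 11.18 to 12.35 in milk-gene-high and from 9.39 to 10.72 in milk-gene-low tumors, a difference of 1.67 ± 0.19 (adjusted p = 6.73e-09, limma). Me1, the malic enzyme that supplies NADPH for fatty acid synthesis, was higher by 1.69 ± 0.20, with medians of 9.23 in milk-gene-high and 7.53 in milk-gene-low tumors.

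The fatty acid synthase Fasn was higher by 1.07, the desaturases Fads1 and Fads2 by 1.09 and 1.10, Xdh, which builds the milk fat globule coat, by 1.04, and the fatty acid carrier Fabp3 by 1.32. Smaller differences passed for Acly (0.40), Elovl5 (0.49), Dgat1 (0.29), Slc25a1 (0.62), Acss2 (0.52) and Aacs (0.30). Acaca, the rate-limiting carboxylase of fatty acid synthesis, did not pass (0.17, adjusted p = 0.380, limma), nor did the stearoyl-CoA desaturase Scd (-0.08). The regulator Srebf1 was at 0.54 with an adjusted p of 0.0705. With a fixed block 9 of the 30 were higher, and with 1 value per line and class 5 were: Olah, Thrsp, Plin2, Fads1 and Me1. Adipocyte markers, which share lipid genes, were mixed. Of 8 tested members of the adipocyte list 0 were higher and 1, Cfd, was lower, with a median difference of 0.02. The Cfd call was lost with a fixed block (adjusted p = 0.162, limma). Lep was at the floor in all 13 milk-gene-high and all 13 milk-gene-low tumors, and Plin1 in 11 of the milk-gene-high and 10 of the milk-gene-low tumors. Fabp4 was at the floor in 7 milk-gene-high and 3 milk-gene-low tumors, with highest values of 8.31 in milk-gene-high and 9.63 in milk-gene-low tumors. The mean of the adipocyte list ranged from 6.68 to 8.51 in milk-gene-high and from 6.31 to 9.02 in milk-gene-low tumors, and its part in the fat gene differences was not tested.

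For lactose synthesis and secretory transport, 9 of 25 tested members were higher and 1 was lower in milk-gene-high tumors (median 0.33). The genes of lactose synthesis itself did not pass: B4galt1, the catalytic partner of alpha-lactalbumin, differed by 0.34 (adjusted p = 0.348, limma), the glucose carrier Slc2a1 by 0.40 and Ugp2 by -0.00. Those that passed were other members of the list. Gp2, a glycoprotein of secretory granules, was higher by 2.28, Tc2n by 2.02, Atp2c2, a calcium pump of the secretory pathway, by 1.74, and Rph3al, an exocytosis effector, by 1.40. Further higher members were Slc7a5 (0.91), Folr1 (0.81), Aqp5 (0.71), Slc30a4, a zinc carrier of milk secretion (0.64), and Slc3a2 (0.46), while the amino acid carrier Slc1a5 was lower (-0.47).

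Tc2n ranged from 7.55 to 9.98 in milk-gene-high and from 5.58 to 8.06 in milk-gene-low tumors, so that the classes met at their edges. Gp2 spread widely, from 9.23 to 13.16 in milk-gene-high and from 6.08 to 12.85 in milk-gene-low tumors, and its call was lost with a fixed block (adjusted p = 0.0557, limma). With 1 value per line and class 2 of the 25 were higher, Atp2c2 and Tc2n.

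Regulators of the alveolar programme followed. Of 20 tested genes of prolactin signalling and alveolar fate 3 were higher and 0 lower in milk-gene-high tumors, with a median difference of 0.02. They were Nfib, a nuclear factor that acts with Stat5 on milk genes (0.83 ± 0.15, SE; adjusted p = 0.000113, limma), Kit, a receptor tyrosine kinase of luminal progenitors (1.05 ± 0.31), and Cish, a feedback inhibitor of cytokine signalling induced by Stat5 (0.65 ± 0.20). Nfib ranged from 9.59 to 10.98 in milk-gene-high and from 9.08 to 10.04 in milk-gene-low tumors, while a dimmer Nfib probe set went the other way, with means of 6.93 in milk-gene-high and 7.24 in milk-gene-low tumors. The Cish medians were 7.14 in milk-gene-high and 6.39 in milk-gene-low tumors, and with a fixed block its adjusted p was 0.110. Kit was called with a fixed block (adjusted p = 0.0154, limma) but not with 1 value per line and class (0.0882). Without series 13 or series 36 Kit was not called either (adjusted p = 0.0601 and 0.110, limma). With a fixed block 2 of the 20 genes were higher, and with 1 value per line and class 1 was. Over all genes tested 6.47% were higher.

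The prolactin receptor Prlr itself had medians of 10.09 in milk-gene-high and 9.04 in milk-gene-low tumors, and its difference of 0.99 had a 95% interval of -0.03 to 2.00 (adjusted p = 0.220, limma). Stat5a differed by 0.41 (interval 0.06 to 0.75, adjusted p = 0.118) and Stat5b by 0.38 (adjusted p = 0.130). The intervals of Prlr and Stat5a are wide, so these values do not show that the classes were alike. Of 14 tested hormone response genes 0 passed in limma (3 at an unadjusted p under 0.05), and their median was -0.01. Esr1, the estrogen receptor, was not tested since it was too dim; it was at the floor in 9 of 13 milk-gene-high and 11 of 13 milk-gene-low tumors. Pgr, the progesterone receptor, was also too dim to test, with medians of 5.93 in milk-gene-high and 5.36 in milk-gene-low tumors.

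Epithelial genes of both layers were higher in part. On the luminal list 8 of 19 tested members were higher and 0 lower in milk-gene-high tumors (median 0.62), among them the protease Prss8 (1.69), the mucin Muc1 (1.34), the claudin Cldn7 (1.01), the keratin Krt8 (0.90), the tight junction protein Ocln (0.80) and the cadherin Cdh1 (0.76). Prss8 ranged from 8.06 to 9.70 in milk-gene-high tumors and from 5.31 to 8.82 in milk-gene-low tumors, and 2 milk-gene-low tumors were at the floor. Krt18 (0.82, adjusted p = 0.106, limma), Krt19 (0.62) and Krt7 (-0.58) did not pass. Epcam moves with these genes: without the 2 milk-gene-low arrays with Epcam under 10, 3 of 19 were higher and 1 lower with a median of 0.30, and with Epcam as a covariate 3 were higher and 2 lower with a median of 0.08. With a fixed block 2 were higher.

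On the basal myoepithelial list 6 of 20 tested members were higher and 0 lower (median 0.46). The contractile genes Mylk (2.18 ± 0.36, SE; adjusted p = 2.28e-05, limma) and Cnn1 (1.53 ± 0.41), the keratin Krt15 (1.70) and the binding protein Igfbp2 (1.52) had the largest differences. Mylk ranged from 8.47 to 11.97 (median 10.51) in milk-gene-high and from 6.27 to 10.53 (median 7.93) in milk-gene-low tumors, and both series 32 tumors of the earliest generations stood at 10.24 and 10.53. The basal keratins Krt5 and Krt14 did not pass (0.43 and -0.01, adjusted p = 0.330 and 0.991, limma), and the Krt14 difference was positive under several alternatives. With 1 value per line and class 0 of the 20 passed in limma, and without arrays with Epcam under 10, 2 did. Igfbp2 was then at 0.89 (adjusted p = 0.130, limma), and at 0.73 with Epcam as a covariate.

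Other genes with the largest differences carried no single role. Muc4, a membrane mucin of the luminal surface, ranged from 8.58 to 10.54 in milk-gene-high and from 5.31 to 7.73 in milk-gene-low tumors (2.71 ± 0.27, SE; adjusted p = 2.95e-10, limma). Aldoc, an aldolase, ranged from 9.12 to 10.80 in milk-gene-high and from 5.92 to 8.51 in milk-gene-low tumors (2.40 ± 0.29). Csap1, a secreted protein named from saliva, differed by 4.42 but overlapped, since it reached 12.62 in transplant 4 of series 19 and 11.54 in transplant 3 of series 32 within the milk-gene-low class, and with 1 value per line and class its adjusted p was 0.0619.

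Sox10, a transcription factor of neural crest and mammary progenitor cells, was at the floor in 9 of 13 milk-gene-low tumors and between 8.30 and 10.11 in milk-gene-high tumors (2.89 ± 0.40). The other 4 milk-gene-low tumors, transplants 4 and 5 of series 19 and the 2 earliest tumors of series 32, had Sox10 at 8.89, 8.20, 8.31 and 8.94. Col2a1, a cartilage collagen, was also highest in those tumors within the milk-gene-low class. It stood at 9.17 and 8.88 in the series 19 tumors and at 10.58 and 11.40 in those of series 32, against medians of 10.81 in milk-gene-high and 6.40 in milk-gene-low tumors. A dimmer Col2a1 probe set had means of 7.64 in milk-gene-high and 7.18 in milk-gene-low tumors. With 1 value per line and class neither Sox10 (adjusted p = 0.0511, limma) nor Col2a1 (adjusted p = 0.0958, limma) was called. The acute phase protein Lbp (2.06), the cytokine Il17b (2.32) and Scgb1d2-ps1, annotated as a secretoglobin pseudogene of a family of similar copies (2.39), were also higher. Without the milk-gene-high arrays the mean level of Scgb1d2-ps1 (6.18) lay under the filter on low values, so its call adds no support. The Lbp call was lost with 1 value per line and class (adjusted p = 0.115, limma).

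Among genes that rise when milk is withdrawn, the growth factor Tgfb3 was higher in milk-gene-high tumors without overlap (9.36 to 11.25 in milk-gene-high, 7.71 to 9.24 in milk-gene-low tumors; 1.70 ± 0.22, SE). The iron carrier binding protein Lcn2 was higher by 1.24, with medians of 13.05 in milk-gene-high and 11.93 in milk-gene-low tumors. The protease inhibitor Timp1 was lower (-1.22), with medians of 9.31 in milk-gene-high and 10.63 in milk-gene-low tumors, a call lost with a fixed block (adjusted p = 0.0928, limma) and with 1 value per line and class (adjusted p = 0.169). The other 12 of 15 tested members of the involution list, Stat3 and Igfbp5 among them, did not pass. Of the 15, 7 had a positive difference, and the list median was -0.08.

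**Figure D4:**
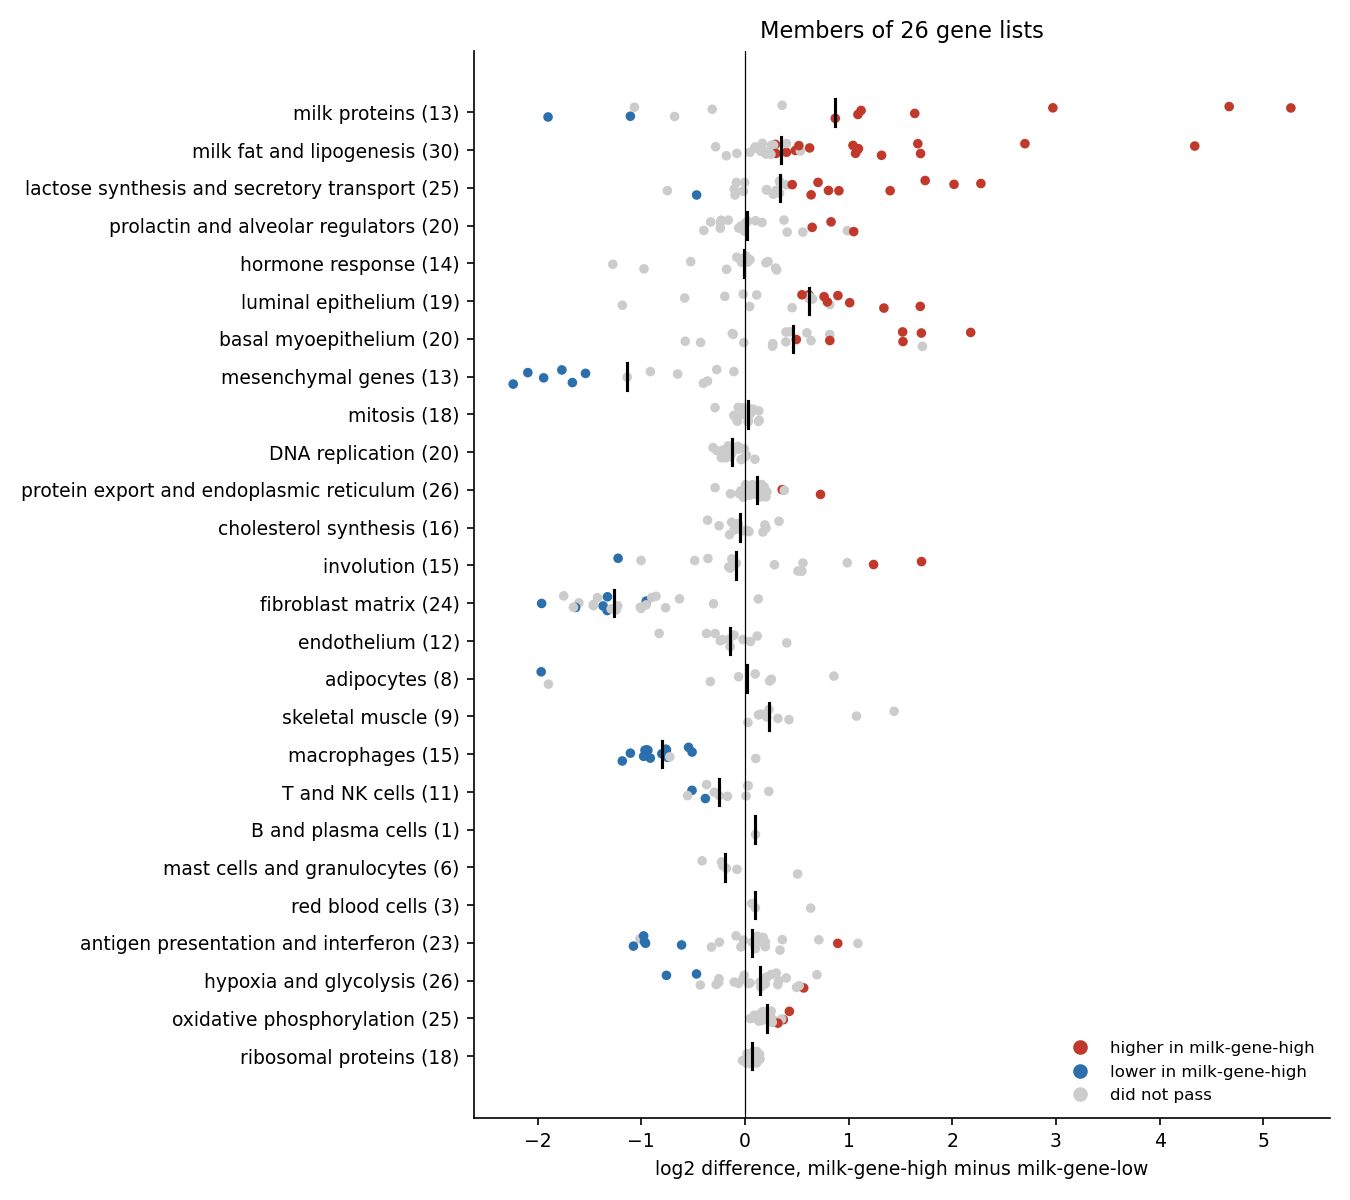
Log2 difference between milk-gene-high and milk-gene-low tumors (horizontal axis) for each tested member of 26 gene lists (vertical axis, number tested in brackets), 1 point per gene, coloured by whether it passed, with the list median as a bar. Higher members lie mostly in the milk, fat, transport and epithelial lists, and lower members in the mesenchymal, matrix and macrophage lists.

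The lower genes were led by mesenchymal and matrix genes. Of 13 tested mesenchymal genes 6 were lower and 0 higher in milk-gene-high tumors (median -1.14): Tnc, a matrix glycoprotein of remodelling tissue, Fn1 (fibronectin), S100a4, Lgals1, Tgfbi and Emp3. Tnc had a lowest, median and highest value of 5.31, 6.998 and 10.47 in milk-gene-high tumors and of 7.19, 10.07 and 12.60 in milk-gene-low tumors (-2.24 ± 0.56, SE; adjusted p = 0.00512, limma). The milk-gene-high tumor of series 36 stood at 10.47, inside the milk-gene-low range. S100a4, which binds calcium and marks mesenchymal cells, had medians of 7.67 in milk-gene-high and 10.01 in milk-gene-low tumors (-2.09 ± 0.58). Vim and Cd44 did not pass (-0.36 and -0.91).

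On the fibroblast matrix list 6 of 24 tested members were lower and 0 higher (median -1.27). They were Dpt (-1.96), Pdgfra (-1.63), Col12a1 (-1.37), Col5a1 (-1.33), Fbn1 (-1.33) and Col5a2 (-0.95). The fibrillar collagens Col1a1 (-1.42, adjusted p = 0.0983, limma) and Col1a2 (-1.46, adjusted p = 0.0776) did not pass. The mean level of the list ranged from 6.85 to 9.83 in milk-gene-high and from 7.27 to 10.83 in milk-gene-low tumors, so that the classes overlapped over most of their range. Matrix genes outside the list were lower as well, with Pcolce, which aids collagen maturation, at -2.06, Fndc1 at -2.05 and Col8a1 at -1.86. With a fixed block Pcolce was still called (adjusted p = 0.0172, limma), while Fndc1 (0.0800) and Col8a1 (0.120) were not. With 1 value per line and class Pcolce (adjusted p = 0.193, limma), Fndc1 (0.0958) and Col8a1 (0.274) all missed the threshold. With line as a fixed block 0 of the 24 matrix genes and 2 of the 13 mesenchymal genes passed in limma, and with 1 value per line and class 0 of either list did. The median differences in those fits were -1.28 and -1.04 for the matrix list and -1.02 and -1.07 for the mesenchymal list. Without the 2 arrays with Epcam under 10, 1 matrix gene (median -1.11) and 3 mesenchymal genes (median -0.67) were lower. With Epcam as a covariate 0 matrix genes (median -0.78) in limma and 1 mesenchymal gene (median -0.69) were.

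Macrophage genes were lower as a group in count. Of 15 tested members 13 were lower and 0 higher in milk-gene-high tumors (median -0.80). They included Fcgr2b (-1.18), an Fc receptor, Lyz2 (-1.11), Cd74 (-0.98), the invariant chain of class II antigen presentation, Mpeg1 (-0.96), Csf1r (-0.95), the receptor that macrophages need, and the complement subunits C1qa, C1qb and C1qc (-0.91, -0.51 and -0.80). Mpeg1 had medians of 8.50 in milk-gene-high and 9.54 in milk-gene-low tumors. The mean level of the list ranged from 7.79 to 9.40 in milk-gene-high and from 8.55 to 10.32 in milk-gene-low tumors, and no tested member but Fcgr2b was at the floor in any tumor of either class. The number of macrophage genes called was 5 with a fixed block, 2 without series 13 and 5 without series 17. With 1 value per line and class 0 passed in limma, and the median difference in those fits stayed between -0.69 and -0.84. With Epcam as a covariate 4 were called (median -0.69). With the mean fibroblast matrix level as a covariate 0 passed in limma, and the median moved to -0.45.

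The class II genes RT1-Bb (-1.08), RT1-Db1 (-0.97) and RT1-Da (-0.96), whose family members have similar sequences, were lower together with Cd74, among 5 lower and 1 higher of 23 tested antigen presentation and interferon genes. With a fixed block, and with 1 value per line and class, 0 of the 23 passed in limma, and without series 13 0 were lower. The fixed-block adjusted p was 0.126 for RT1-Bb, 0.103 for RT1-Db1 and 0.115 for RT1-Da. Of 11 T and NK cell genes Il2rb (-0.51) and Nkg7 (-0.38) were lower, while Cd3e and Cd2 stood at similar medians (7.09 and 8.50 in milk-gene-high, 7.13 and 8.46 in milk-gene-low tumors). With a fixed block 2 of the 11 were lower. With 1 value per line and class, and with Epcam as a covariate, 0 passed in limma, and the same held without series 13 and without series 36. The B cell receptor gene Cd79b was at the floor in 13 of 13 milk-gene-high and 12 of 13 milk-gene-low tumors. The part of stromal and immune cells in the milk gene differences was not tested. With the mean fibroblast matrix level as a covariate 409 genes were called (298 higher, 111 lower), with 7 of 13 milk proteins and 10 of 30 milk fat genes higher and 0 of 15 macrophage genes lower in limma.

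Further lower values were those of the brightest Sfrp4 probe set, a secreted Wnt modulator (-2.16), Id3, an inhibitor of helix-loop-helix factors (-1.90), Tcf7, a Wnt pathway transcription factor (-1.73), Cyth3 (-1.67) and Cfd, the adipocyte serine protease adipsin (-1.97). A second Sfrp4 probe set went the other way, with means of 7.28 in milk-gene-high and 6.64 in milk-gene-low tumors, so the direction of Sfrp4 is uncertain. Tcf7 ranged from 5.31 to 7.99 in milk-gene-high and from 6.36 to 9.47 in milk-gene-low tumors. Of the 15 genes with the largest negative differences, Cyth3 was the only one called with 1 value per line and class (adjusted p = 0.0201, limma), and its line means did not overlap. With a fixed block Cyth3 was not called (adjusted p = 0.101, limma), nor were Sfrp4 (0.0690), Id3 (0.0508) and Cfd (0.162).

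Proliferation genes did not pass. Of 18 mitosis and 20 DNA replication genes tested 0 were called in limma (1 and 1 at an unadjusted p under 0.05), with medians of 0.03 and -0.12, and Mki67 had medians of 8.12 in milk-gene-high and 8.01 in milk-gene-low tumors. Its difference of 0.06 had a 95% interval of -0.46 to 0.57 and changed sign under some alternatives. Of 25 oxidative phosphorylation genes 3 were higher and 0 lower (Ndufa4, Sdhd and Atp5f1a, by 0.43, 0.37 and 0.32), and all 25 had a positive difference with a median of 0.22. With 1 value per line and class, and with Epcam as a covariate, 0 of the 25 passed in limma. Of 26 hypoxia and glycolysis genes 1 was higher (Ldha, 0.57) and 2 lower (P4ha2, -0.76, and Slc2a3, -0.47), shares near the 6.47% and 5.06% over all genes. With a fixed block, and with 1 value per line and class, 0 of the 26 passed in limma, and the same held without series 13 and without series 17. A second P4ha2 probe set had means of 6.41 in milk-gene-high and 6.28 in milk-gene-low tumors. Among 26 protein export and endoplasmic reticulum genes Sec11c (0.73) and Hsp90b1 (0.36) were higher, a share near the 6.47% over all genes, and with a fixed block 0 passed in limma (adjusted p = 0.0515 and 0.108). Of 16 cholesterol synthesis and 18 ribosomal protein genes 0 passed in limma (2 and 1 at an unadjusted p under 0.05).

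Skeletal muscle markers stood out in 1 milk-gene-high tumor. The mean level of that list was 10.29 in transplant 3 of series 25L, against at most 8.03 in the other milk-gene-high and at most 7.24 in the milk-gene-low tumors, and 0 of its 9 tested members passed in limma (1 at an unadjusted p under 0.05). With the mean of the muscle list as a covariate 813 genes were called.

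The middle tumors, which are in neither outer class, were tested separately against the score itself. Over these 28 tumors, with scores from 10.44 to 12.68, 0 of 8495 genes rose (0%) and 0 fell (0%) with the score at an adjusted p under 0.05 in limma, while 452 had an unadjusted p under 0.05. Among genes called between the classes, 102 of 550 higher and 98 of 430 lower had an unadjusted p under 0.05 in the same direction. Over all 8495 genes that number was 452, in either direction. The score and most lines are shared with the contrast, so these counts are not independent support for it. Cel, with a slope of 0.58 ± 0.11 log2 units per unit of score (SE), had the smallest adjusted p of the named genes (0.0681, limma). Slopes were 1.53 ± 0.43 for Csn2, 0.93 ± 0.24 for Wap and 0.43 ± 0.11 for Plin2. Their adjusted p was 0.710 for Csn2 and 0.707 for Wap and Plin2 (limma). Of the 28 middle tumors 11 were at the Csn2 floor and 19 at the Wap floor, so the slopes of Csn2 and Wap do not measure the size of a change. Both genes were tested only because of the milk-gene-high arrays. All lines in the middle class except series 34 also supply tumors to the outer classes.

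Series 36, the only line with both classes, let the difference be read within 1 line of descent, without a test. Its score was 12.55, 12.20, 10.99, 12.98, 9.19 and 7.45 from the primary tumor to transplant 5. Csn2 was 9.75, 5.31, 5.40, 12.28, 5.31 and 5.31 in the same order, and Wap left the floor in the primary tumor (7.21) and transplant 3 (11.03) only. Olah was 11.68 in transplant 3, against 6.37 and 5.31 in transplants 4 and 5. The mean of the milk-gene-low tumors of series 36, taken from its milk-gene-high tumor, left differences of at least 6.97 for Csn2, which was at the floor in both milk-gene-low tumors, at least 5.84 for Olah, at the floor in transplant 5, and 3.36 for Pigr, 1.38 for Plin2 and 1.83 for Me1.

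The lower genes behaved unevenly in that line. S100a4 was 7.89 in the milk-gene-high tumor and 10.17 and 12.15 in the milk-gene-low tumors, and Id3 was 8.12 in the milk-gene-high tumor, against 9.66 and 12.32. Fn1 and Tnc differed little there, by -0.29 and 0.41, and Fn1 was already at 12.51 in transplant 2. Prss8 was 9.24 in the milk-gene-high tumor, against 7.50 and 5.31 in the milk-gene-low tumors, of which transplant 5 also had the low Epcam of 9.46.

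**Figure D5:**
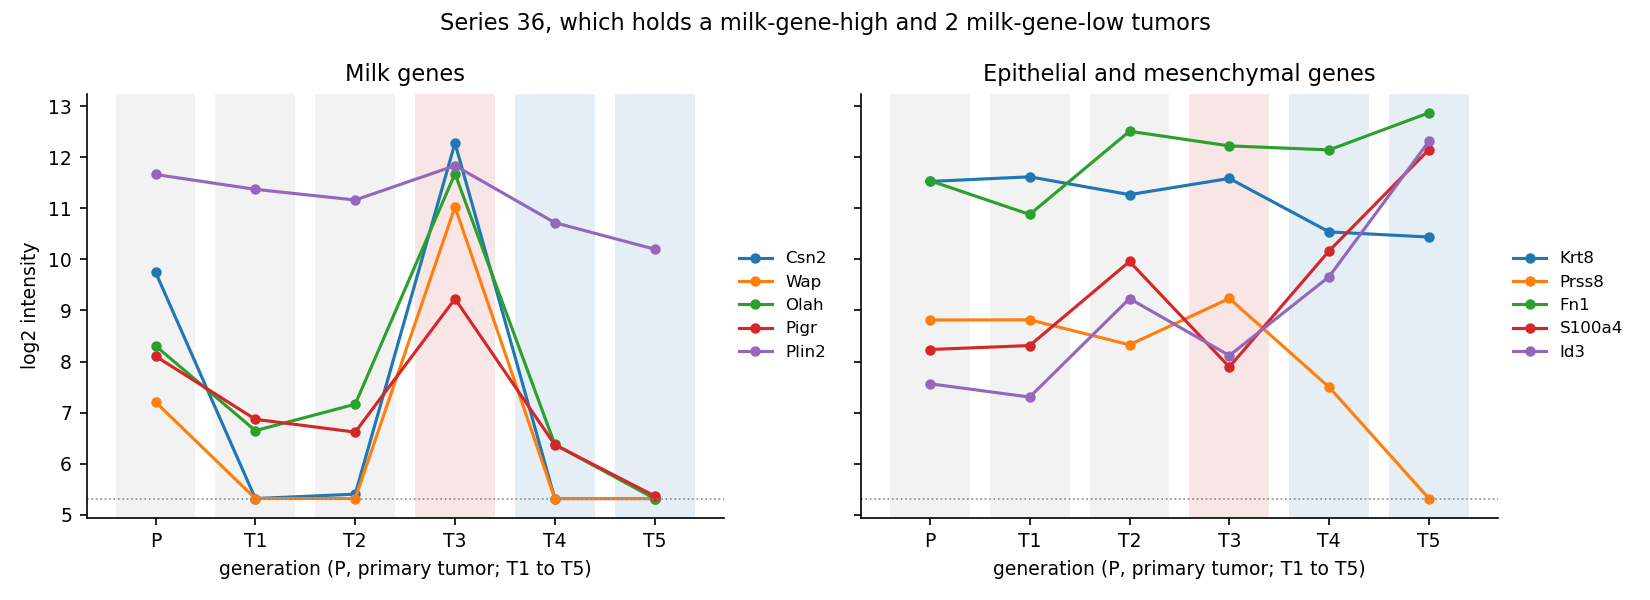
Log2 intensity (vertical axis) of 5 milk genes on the left and 5 epithelial and mesenchymal genes on the right in each generation of series 36 (horizontal axis), with the floor of 5.31 dotted and the background shaded red for the milk-gene-high, blue for the milk-gene-low and grey for the middle class tumors. Csn2, Wap and Olah peak in transplant 3 and are near or at the floor in transplant 5, while S100a4 and Id3 are highest in transplant 5.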

How the data were processed

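Expression was measured on 1 Affymetrix array per tumor, 65 arrays in all. The deposited values are linear intensity, 1 per probe set and array; for the software that made them, no name was found in the labels or file headers. Each array was scaled to a common median of 162 over 15866 non-control probe sets, given a floor at the pooled 10th percentile (39.8, or 5.31 on the log2 scale) and taken to log2. Of 10411 genes, each read from its probe set with the highest mean, 1912 with a mean log2 under 6.35 (the 25th percentile of all probe sets) and the 4 genes of the rule were left out, which gave 8495. Without the milk-gene-high arrays 18 of the genes tested would have missed that limit (10 were called higher), and without the milk-gene-low arrays 30 (12 were called lower). The score and the Epcam limit used values without the floor. Probe sets with several gene symbols (312) or none (2771) were not named.

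Differences were fitted with limma 3.58.1 in R 4.3.3 over the 54 kept arrays, with transplant series as a random block (correlation 0.231) and Benjamini-Hochberg adjustment over all genes tested. The pairing of arrays by series comes from the study design. The procedure was tested on simulated data. There 95% of genes changed by 1 log2 unit were called with the right sign, and 6.73% of calls were unchanged genes. The simulated data kept the classes fixed, so they do not cover the choice of classes from measured values. They also drew genes independently, without a floor, and with the same correlation within lines for each gene, as the fitted model assumes. These rates therefore need not hold for the calls in the tumors. Alternatives covered the block, score, thresholds, scaling, floor, filter, covariates and each series left out. The number of arrays limits the precision. Named genes were the 15 with the largest called difference in each direction, called members of the milk and hormone lists, up to 4 called genes of each other list, and a few fixed genes. Other list members were named after their values were seen. The members and lists were chosen with earlier results of these data known.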

Additional observations from a re-analysis of the deposited data

Results flagged for a closer look

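Milk score and Epcam were screened for single arrays far from the rest of their generation or line, by Dixon's criterion at the 95% level. Of 23 groups, 5 held such an array, and about 1 in 20 groups would by chance. Within transplant 2, series 17 had a milk score of 8.82, below the other 9 epithelial tumors. Within series 25R, transplant 4 had a score of 7.83, below the other generations of that line. Within series 42, which lay under the Epcam limit throughout, the primary tumor had a score of 9.77, above its transplants. Epcam was 9.17 in transplant 3 of series 32 and 9.46 in transplant 5 of series 36, below the other epithelial tumors of their generations. The tumors of series 17, 25R, 32 and 36 are in the milk-gene-low class.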

How the results depend on the processing

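The count of 980 genes between milk-gene-high and milk-gene-low tumors varied with the fit. It was 418 with the replicate block (series as a fixed block), 478 with the 13 high and 13 low arrays alone, 454 with Epcam as a covariate, 538 with the score from Csn3 alone, 414 with Csn1s1 alone and 1704 with array weights. Alternatives chosen after seeing the data gave 123 with 1 value per line and class, 409 with the fibroblast matrix mean as a covariate and 643 without kept arrays with Epcam under 10. Leaving out 1 series at a time gave 485 to 1202 genes, with 485 without series 13, 615 without series 17 and 636 without series 36. The other alternatives stayed within 1.5 times the count. For 2 of them, an Epcam limit of 9 and a score with the floor, the classes were unchanged, so the count of 980 could not move. Over the 35 settings, 82 higher and 8 lower genes were called in each setting that tested them, among them 21 of 58 higher and 0 of 31 lower named genes. Not every gene was tested in all 35, and Csn2, Wap, Pigr and Scgb1d2-ps1, for instance, were tested in 34. Of the 21, Csn2, Wap and Scgb1d2-ps1 passed the filter on low values only through the milk-gene-high arrays. The slope in the middle class called 0 genes in limma with or without the replicate block or a generation term, and 0 to 2 when 1 series was left out. Uncalled genes changed sign. Krt5 was -0.042 with Epcam as a covariate. Krt14 was 0.18 with the replicate block, 0.20 with generation, 0.052 with the Gapdh ratio, 0.10 with wider outer classes, 0.031 with Csn1s1 alone, 0.10 with 1 value per line and class, and -0.42 to 0.44 without 1 series. Mki67 was -0.039 with the replicate block, -0.037 as a slope, -0.16 with Csn1s1 alone, -0.11 with array weights, and -0.046 to 0.21 without 1 series. The cause was not tested. Signal at the floor limits what can be said of Csn2, Wap and Sox10 in milk-gene-low tumors.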
